A study of Rattus norvegicus with 24 samples.

Results

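The difference between the lithium effect at day 28 and the lithium effect at day 7 was described here for 18166 genes, all those on the array with a probe set that carries a single gene symbol. For each of 12 rats the log2 signal at the Ctrl site was subtracted from that at the Li+ site of the same animal, and the 6 differences of day 28 (rats 21, 23, 27, 28, 29 and 30) were compared with the 6 of day 7 (rats 4, 5, 7, 10, 11 and 15). The question was whether bone around a lithium-releasing implant departed from bone around a lithium-free implant in another way late in healing than early. A positive value means that Li+ minus Ctrl was larger at day 28, which is the same number as the change over time around Li+ minus the change over time around Ctrl.

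The samples were peri-implant bone from the tibia of male Sprague Dawley rats, taken 28 or 7 days after surgery, with 6 samples in each of the groups Li+ day 28, Ctrl day 28, Li+ day 7 and Ctrl day 7. The implants were made of poly(lactide-co-glycolide acid) (PLGA), a degradable polymer, with lithium ions in the Li+ implants and without them in the Ctrl implants, which the study describes as sodium-containing. No transgene or deletion was involved, and the age of the animals is not given in the sources used here. Each tibia received an implant of both kinds in drilled sites whose positions alternated, so every Ctrl site lay in an animal that also carried lithium, and the bone was cut out with a hollow drill.

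Lithium ions inhibit glycogen synthase kinase 3, the kinase that marks beta-catenin for degradation. Without that mark beta-catenin accumulates and, together with TCF/LEF transcription factors, switches on Wnt target genes, which in bone favor osteoblasts, the cells that lay down matrix. Osteocytes, the osteoblasts that have become buried in mineralized bone, secrete sclerostin (Sost) and Dickkopf-1 (Dkk1), which block the Wnt co-receptors on the cell surface.

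Signals are log2 values, so a difference of 1 is a doubling. The median signal of all probe sets was 7.31, and that of single arrays lay between 7.23 and 7.34. The 6 bone markers measured (Col1a1, Bglap, Ibsp, Sost, Dmp1 and Ctsk) were all above that median, with Col1a1 between 12.8 and 13.7 over the 24 arrays. Markers of other tissues were present as well. The muscle creatine kinase Ckm was at a median of 7.60 but reached 12.995, and the neutrophil gene Mpo lay between 12.14 and 12.99. In such bulk tissue, fewer cells of a type and less RNA per cell cannot be told apart.

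Adjusted over the 36495 probe sets tested, 0 differences passed limma's threshold (0%), and the lowest adjusted p was 0.9995. None of the genes named here passed it, and their values are given as measured. At an unadjusted p under 0.05, limma counted 1320 probe sets (3.62%), 661 of them higher (1.81%) and 659 lower (1.81%) at day 28. Among the named genes it counted 427 (2.35%), which were 272 higher (1.5%) and 155 lower (0.853%), against the 5% that chance alone gives. After the median of each array had been subtracted the count was 456, of which 348 were higher and 108 lower, so the share of higher genes was 76.3% with this centering and 63.7% without. The study's own search criterion, 1.5-fold with an unadjusted p, was met by 132 probe sets (0.362%) and by 10 named genes (0.055%), 4 higher and 6 lower.

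The lithium effects themselves were small on both days. The median size of the mean Li+ minus Ctrl difference was 0.0423 at day 28 and 0.0535 at day 7. The median standard error of the difference between days was 0.102, with quartiles of 0.0850 and 0.129. The rats of day 7 varied more, with a median SD of Li+ minus Ctrl of 0.146 at day 28 and 0.182 at day 7, and the SD was larger at day 7 in 63.6% of the genes. Single animals weighed on this spread, and for rat 10 a single array stood apart. Its Ctrl array of day 7 had the lowest median signal of the 24 (7.23) and the lowest median correlation with the arrays of its own group (0.980), while its Li+ array was at 7.32 and 0.992. In the fit with array weights the difference of rat 10 had the lowest weight, 0.292. The part of that array in the results was not tested apart from leaving out the rat. Rat 10 held the largest of the 6 day 7 differences in size in 41.3% of all named genes and in 39.1% of the 427, and rat 23 held the largest of the 6 day 28 differences in 32.8% and 26.2%.

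Across genes the mean lithium effect at day 28 was hardly related to that at day 7. Pearson's r was 0.0955 and Spearman's rho 0.131 over the 18166 named genes, and over those above the median signal r was 0.164 and rho 0.207. These are descriptions across genes, which are not independent replicates, and the days hold different rats. Li+ against Ctrl had an unadjusted p under 0.05 in 544 named genes (2.99%) at day 28 and in 345 (1.9%) at day 7. Of these, 14 (0.0771%) met it on both days, which is 2.57% of the day 28 genes and 4.06% of the day 7 genes. In 10 of the 14 the direction was the same, 5 higher and 5 lower with Li+. The 4 with opposite directions (Or13c7e, Or8k16b, Andpro and Spetex2l1) all had a mean signal under the overall median.

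**Figure D1:**
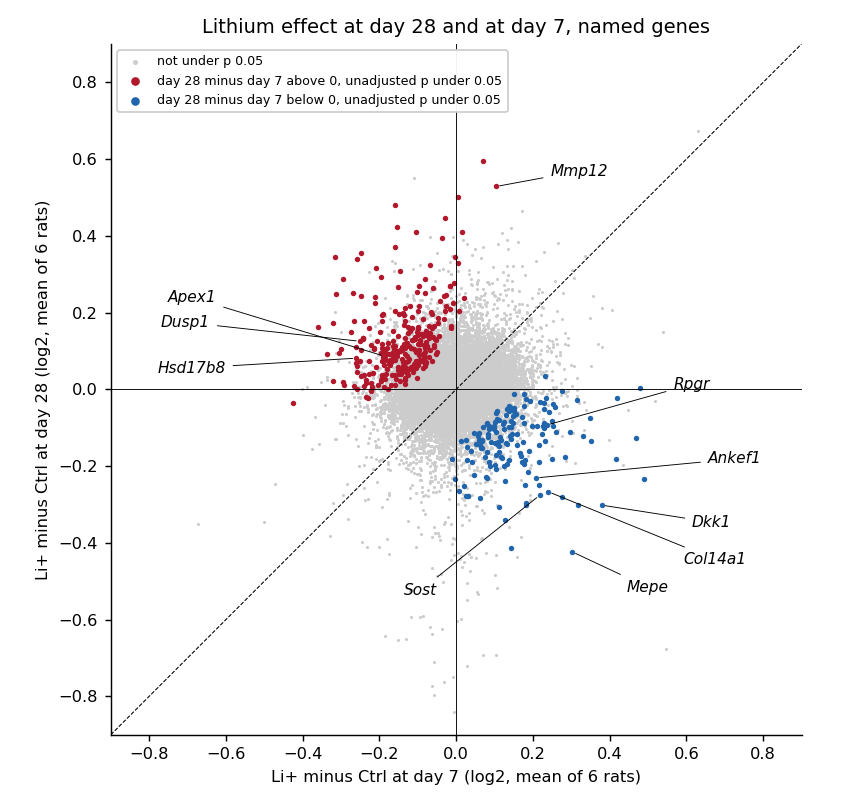
Each point is a named gene, with the mean Li+ minus Ctrl difference at day 28 (log2, 6 rats) on the y axis and that at day 7 (log2, 6 rats) on the x axis. Red points are the 272 genes with a higher and blue points the 155 with a lower value at day 28 at an unadjusted p under 0.05, the dashed line marks equal effects, and the cloud has no clear slope (r = 0.0955).

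The genes apart between days mostly had a lithium effect of one sign at day 28 and of the other at day 7. Of the 427 genes, 412 (96.5%) had mean effects of opposite sign, against 44.5% of all named genes, a share that choosing genes by the difference itself raises. The mean effect was the larger in size at day 28 in 188 and at day 7 in 239. Of the 272 genes higher at day 28, 265 were below 0 at day 7, and of the 155 lower ones 153 were above 0 at day 7. In 28 named genes (0.154%) the 6 rats of day 28 did not overlap with the 6 of day 7, 21 of them higher and 7 lower at day 28, and 25 of these were among the 427. If the rats are exchangeable between days, a single gene separates in this way with a probability of 0.00216, the smallest exact permutation p. The share of 0.154% is not above that, so a lack of overlap does not set a gene apart from chance.

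The widest difference among genes above the median signal with an unadjusted p under 0.05 was in Mepe, the gene of matrix extracellular phosphoglycoprotein, which osteocytes secrete into the mineralizing matrix. At day 28 Li+ minus Ctrl in Mepe was -0.57 in the lowest rat, -0.38 in the median and -0.31 in the highest, so all 6 rats had less with Li+. At day 7 it was -0.52, 0.18 and 1.06, with Li+ above Ctrl in 4 of 6 rats. Mean Mepe signals were 8.07 ± 0.53 in Li+ day 28, 8.49 ± 0.61 in Ctrl day 28, 8.52 ± 0.71 in Li+ day 7 and 8.22 ± 0.54 in Ctrl day 7 (SD, n = 6 each). Over time Mepe thus changed by -0.45 around Li+ and by 0.28 around Ctrl, a difference of -0.73 (SE 0.229, limma unadjusted p = 0.00732, exact permutation p = 0.0108). The 2 sets of differences overlapped only through rat 4, whose value of -0.52 at day 7 lay among those of day 28.

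Dkk1, the Dickkopf-1 gene, had Li+ minus Ctrl differences of -0.66, -0.32 and 0.07 in the lowest, median and highest rat at day 28, against -0.17, 0.16 and 1.17 at day 7. Li+ was below Ctrl in 5 of 6 rats at day 28 and above it in 4 of 6 at day 7. The mean Dkk1 signals were 8.76 ± 0.61 in Li+ day 28 and 9.06 ± 0.65 in Ctrl day 28, and 9.74 ± 0.47 in Li+ day 7 and 9.36 ± 0.61 in Ctrl day 7 (SD, n = 6 each). Dkk1 changed over time by -0.98 around Li+ and by -0.30 around Ctrl, so the difference was -0.68 (SE 0.227, limma unadjusted p = 0.0100, exact permutation p = 0.0152).

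Sost, the gene of sclerostin, went the same way with a smaller size. Its Li+ minus Ctrl differences were -0.83, -0.26 and 0.30 in the lowest, median and highest rat at day 28 and -0.13, 0.22 and 0.45 at day 7, below 0 in 5 of 6 rats at day 28 and above 0 in 5 of 6 at day 7. Mean Sost signals were 8.80 ± 0.38 in Li+ and 9.08 ± 0.51 in Ctrl at day 28, and 9.15 ± 0.40 in Li+ and 8.93 ± 0.40 in Ctrl at day 7 (SD, n = 6 each). The difference was -0.49 (SE 0.170, limma unadjusted p = 0.0123, exact permutation p = 0.0238), and the values of the days overlapped.

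**Figure D2:**
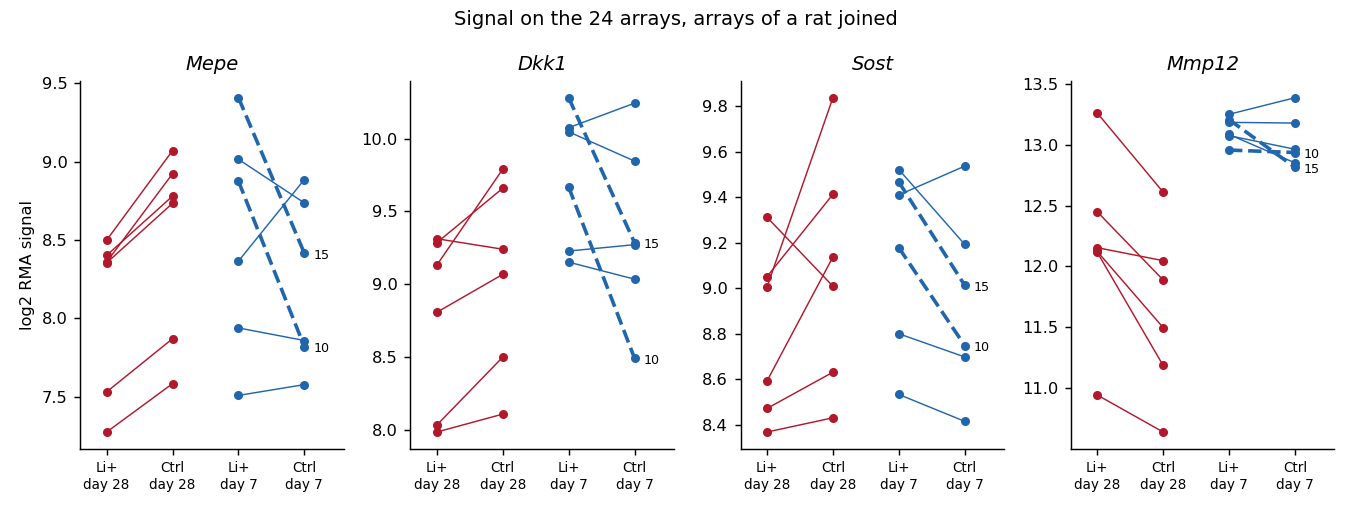
The log2 signals of Mepe, Dkk1, Sost and Mmp12 are drawn for each array in Li+ day 28, Ctrl day 28, Li+ day 7 and Ctrl day 7, with the 2 arrays of a rat joined by a line and rats 10 and 15 dashed. At day 28 Mepe was lower at the Li+ site in 6 of 6 rats and Mmp12 higher in 6 of 6, and at day 7 the steepest lines of Mepe and Dkk1 belong to rats 10 and 15.

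The promoters of these 3 osteocyte genes are shown because their direction differed between the days, and because TCF/LEF factors, which act with beta-catenin, bind sequences of the form searched here. The 250 bases before the start of each gene were taken from RefSeq on the assembly GRCr8, all on the minus strand, and are written from 5′ to 3′ along the gene. Capitals mark matches on either strand to any of 4 motifs, namely CTTTGAA as well as CTTTGAT, and likewise CTTTGTA as well as CTTTGTT.
Dkk1, chr1:237798651-237798900: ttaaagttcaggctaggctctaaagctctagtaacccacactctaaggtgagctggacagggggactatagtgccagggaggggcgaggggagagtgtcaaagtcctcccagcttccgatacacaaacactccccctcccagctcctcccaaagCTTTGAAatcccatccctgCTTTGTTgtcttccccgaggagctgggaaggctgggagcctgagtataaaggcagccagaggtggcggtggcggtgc
Sost, chr10:87415767-87416016: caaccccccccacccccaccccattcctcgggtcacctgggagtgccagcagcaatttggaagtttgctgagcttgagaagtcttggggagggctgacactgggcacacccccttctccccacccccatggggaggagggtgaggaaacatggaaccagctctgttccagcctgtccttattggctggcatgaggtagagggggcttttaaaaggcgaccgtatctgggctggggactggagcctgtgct
Mepe, chr14:5736859-5737108: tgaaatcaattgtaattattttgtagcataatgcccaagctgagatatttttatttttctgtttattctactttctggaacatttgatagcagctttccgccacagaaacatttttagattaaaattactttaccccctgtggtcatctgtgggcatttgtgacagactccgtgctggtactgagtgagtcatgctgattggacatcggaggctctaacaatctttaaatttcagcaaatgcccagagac

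The Dkk1 window held 2 such matches, CTTTGAA at positions -96 to -90 and CTTTGTT at -77 to -71 from the start, and those of Sost and Mepe held 0. Of all 33469 promoters of this length in the table, 14.9% held at least 1 match, and among the named genes that could be matched the share was 12.7% of 16050. It was 15.4% of 227 genes higher and 8.06% of 124 genes lower at day 28 at an unadjusted p. A match is a description of the letters and no measurement of binding.

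The size of the values in osteocyte genes rested in part on rats 10 and 15. In rats 4, 5, 7, 10, 11 and 15 the day 7 differences of Mepe were -0.52, -0.07, 0.08, 1.06, 0.28 and 0.99, and these 2 animals also had the highest day 7 differences in 7 of the 14 osteocyte genes measured. Without them, a setting chosen after the data had been seen, the difference was -0.37 for Mepe (limma unadjusted p = 0.0223). It was -0.33 for Dkk1 (limma unadjusted p = 0.0366) and -0.38 for Sost (limma unadjusted p = 0.0745), which no longer met the threshold. Without rat 10 alone the difference was -0.58 for Mepe and -0.52 for Dkk1.

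The rest of the osteocyte list did not move together. Of the 14 genes 8 were below 0, with a median of -0.02, and 3 (21.4%) had an unadjusted p under 0.05, against 2.35% of all named genes with a median of 0.01. These 3 were Mepe, Dkk1 and Sost, described above for their small p. The list was also made with earlier results of these data known, so the share is no independent result. Phex, an endopeptidase that keeps phosphate-regulating signals in check, was at -0.50 (limma unadjusted p = 0.0823). Dmp1, a matrix protein needed for mineralization, was at -0.41 (limma unadjusted p = 0.0850). In both, rat 10 had a day 7 difference above 1, at 1.76 for Phex and 1.04 for Dmp1, and without rats 10 and 15 the values were -0.13 and -0.09. Fgf23, the phosphate-lowering hormone, was at 0.22 and the secreted-protein kinase gene Fam20c at 0.18. Without rats 10 and 15, 6 of the 14 genes were below 0 and the list's median was 0.06.

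Other cell types moved with the same animals. At day 7 the mean Li+ minus Ctrl difference of the osteocyte list was -0.04, -0.04, -0.23, 0.49, 0.16 and 0.46 in rats 4, 5, 7, 10, 11 and 15. In the same order it was 0.50, 0.23, 0.59, -0.11, -0.20 and -0.41 for the 18 of 25 erythroid genes measured and -0.20, -0.13, -0.43, 0.11, 0.21 and 0.52 for the 32 of 35 genes measured of the collagen list. The erythroid and collagen lists thus had opposite signs in 6 of 6 rats of day 7, and the 3 rats whose osteocyte mean was above 0 (10, 11 and 15) had an erythroid mean below 0. Relative to the average over the 24 arrays, the mean erythroid level lay between -0.11 and 0.44 in Li+ day 28, between -0.18 and 0.39 in Ctrl day 28, between -0.74 and 0.23 in Li+ day 7 and between -0.65 and 0.34 in Ctrl day 7. The part of these differences in the osteocyte result was not tested.

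**Figure D3:**
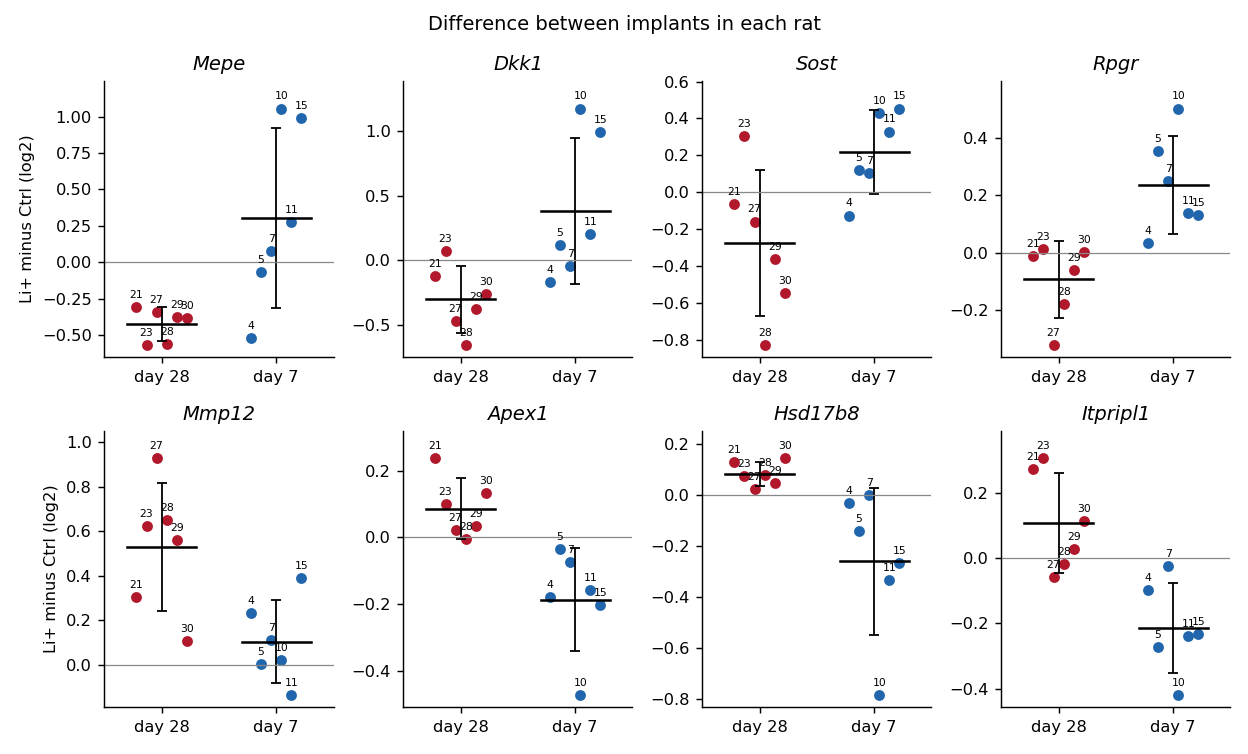
Li+ minus Ctrl (log2) of single rats is plotted for 8 genes, with day 28 left of day 7, numbers naming the rats, lines for the means and bars for 1 SD. Rpgr, Apex1 and Hsd17b8 do not overlap between the days, while Mepe and Dkk1 have wide day 7 values led by rats 10 and 15.

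Mmp12, the gene of macrophage elastase, was the brightest of the genes with the smallest p, and it had more signal with Li+ at day 28 in all 6 rats. Its differences were 0.11, 0.59 and 0.93 in the lowest, median and highest rat at day 28, against -0.14, 0.07 and 0.39 at day 7. Mean Mmp12 signals were 12.17 ± 0.74 in Li+ day 28, 11.65 ± 0.69 in Ctrl day 28, 13.12 ± 0.11 in Li+ day 7 and 13.02 ± 0.22 in Ctrl day 7 (SD, n = 6 each). Mmp12 changed over time by -0.95 around Li+ and by -1.37 around Ctrl, which left a difference of 0.42 (SE 0.133, limma unadjusted p = 0.00687, exact permutation p = 0.0173). Without the 3 rats whose muscle signal differed most between the sites (23, 27 and 29) it was 0.25 (limma unadjusted p = 0.118).

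The macrophage list held 27 measured genes, of which 20 (74.1%) were above 0 with a median of 0.08, against 54.4% of all named genes. Besides Mmp12, the complement gene C1qc had an unadjusted p under 0.05. Its differences were -0.14, 0.09 and 0.25 at day 28 and -0.50, -0.28 and 0.06 at day 7, and the days differed by 0.30 (limma unadjusted p = 0.0170). Folr2, a folate receptor of resident macrophages, was at 0.19 (limma unadjusted p = 0.0872) and Trem2, a lipid-sensing receptor, at 0.30 (limma unadjusted p = 0.161). The mean of the list was higher with Li+ in 5 of 6 rats at day 28, between -0.02 and 0.27, and lay between -0.12 and 0.25 at day 7, so the days overlapped. Without rat 7 the list's median was 0.01 and without rat 28 it was 0.02.

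The 12 genes higher at day 28 with the smallest p above the median signal included Mmp12 and 11 others. Hsd17b8, an enzyme of mitochondrial fatty acid synthesis, had differences of 0.02, 0.07 and 0.14 at day 28, all above 0, and of -0.78, -0.20 and -0.00 at day 7, all below 0. The days differed by 0.34 (limma unadjusted p = 0.0114, exact permutation p = 0.00216, the smallest that 924 regroupings of 12 rats can give), and by 0.21 without rats 10 and 15. Any gene without overlap has this exact p, so it adds nothing to the separation itself. Apex1, an endonuclease of DNA base excision repair, also did not overlap, with -0.01, 0.07 and 0.24 at day 28 and -0.47, -0.17 and -0.03 at day 7 (difference 0.27, limma unadjusted p = 0.00570).

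Ubl5, a ubiquitin-like splicing factor, had -0.07, 0.08 and 0.20 at day 28 and -0.75, -0.18 and -0.07 at day 7, and did not overlap either (difference 0.32, limma unadjusted p = 0.0114). Itpripl1 had the smallest p of the genes higher at day 28 above the median signal, with -0.06, 0.07 and 0.31 at day 28 and -0.42, -0.23 and -0.02 at day 7 (difference 0.32, limma unadjusted p = 0.00360). Ada, adenosine deaminase of purine breakdown, was at 0.30, Emd, which encodes the nuclear envelope protein emerin, at 0.25, Camlg, which helps insert membrane proteins into the endoplasmic reticulum, at 0.22, Sumf2 at 0.22, Or8b8 at 0.21, Psme3ip1 at 0.20 and Ninl, which encodes a centrosome protein, at 0.20. In 10 of the 12 genes so chosen, Mmp12 and Camlg apart, all 6 rats of day 7 were below 0. Choosing genes by a positive difference favors this, and the share over all named genes was not counted, so it is no separate result.

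Of the 12 genes lower at day 28 with the smallest p above the median signal, Rpgr led. It encodes a regulator of transport at the base of the primary cilium. Its differences were -0.32, -0.04 and 0.01 at day 28 and 0.03, 0.20 and 0.50 at day 7, with no overlap, and the days differed by -0.33 (limma unadjusted p = 0.00375, exact permutation p = 0.00216). Zmym3, a chromatin-associated zinc finger gene, did not overlap either, with -0.15, -0.08 and -0.03 at day 28 and -0.01, 0.09 and 0.18 at day 7 (difference -0.17). Col14a1, a collagen that sits on collagen fibrils, had -0.83, -0.14 and 0.14 at day 28 and -0.25, 0.27 and 0.59 at day 7, and changed over time by -0.69 around Li+ and by -0.18 around Ctrl (difference -0.51, limma unadjusted p = 0.0199). The others were Ankef1 at -0.44, Ndufb4l3, a gene with near copies whose probe set may be shared, and Dmbt1 at -0.31 each, Rrm2b, a ribonucleotide reductase subunit used in DNA repair, and Atl1, which fuses endoplasmic reticulum membranes, at -0.26 each, and Rbm34 at -0.22.

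The 10 genes past 1.5-fold were mostly dim. Mepe and Dkk1 were 2 of them, and the others chosen for naming were Or8b45 (0.66), Or7g33 (0.64), Andpro (0.60), Or8k27 (0.60), Or12d14 (-0.72) and Or6c3 (-0.62), with mean signals between 3.27 and 5.90, under the median of 7.31. Or names stand for odorant receptors, a large family of near-identical genes whose probe sets can share sequence. The odorant and vomeronasal receptors made up 71 of the 427 genes (16.6%) and were counted in 5.28% of their 1344 members, against 2.12% of the other 16822 named genes, and 44 of the 1344 were above the median signal. Leaving out single rats ended the unadjusted call in 7 of 12 fits for Or8b45, in 9 for Or7g33 and in 4 for Or6c3. Of the 427 genes, 149 (34.9%) were above the median signal.

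The Wnt pathway was followed through 5 lists with 95 measured genes, joined after their values had been seen. Of these 49 were above 0, 3 were higher and 3 lower at an unadjusted p (6.32% against 2.35% of all named genes), and the median was 0.00. The 3 lower ones were Dkk1 and Sost among 16 secreted inhibitors and Lrp4, the receptor through which sclerostin is anchored, at -0.27 (limma unadjusted p = 0.0351). Dkk1 and Sost were counted in the osteocyte list as well. The differences of Lrp4 were -0.30, -0.15 and 0.11 at day 28 and -0.10, 0.06 and 0.45 at day 7, and its p lost the threshold in 6 of 12 fits without a single rat.

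Among 24 Wnt ligands and secretion genes 16 were above 0, and Wnt2b, which was under the median signal, and Rspo1, whose protein amplifies Wnt signals at the receptor, were at 0.22 (limma unadjusted p = 0.0331) and 0.17 (limma unadjusted p = 0.0393). Their p lost the threshold in 6 and 8 of the 12 fits without a single rat. Receptors were mostly below 0, 13 of 18, with a median of -0.05. In the destruction complex, which degrades beta-catenin, 8 of 16 genes were above 0 and 0 had an unadjusted p under 0.05. Among 22 targets and TCF factors the one such gene was Mmp7, a dim metalloproteinase gene, at 0.22 (limma unadjusted p = 0.0467). It lost the threshold in 8 of the 12 fits without a single rat and was at 0.13 without rat 11. Axin2, a target that feeds back on the pathway, had differences of -0.02, 0.05 and 0.16 at day 28 and -0.23, -0.05 and 0.07 at day 7. It was above Ctrl in 5 of 6 rats at day 28 and in 1 of 6 at day 7, and the days differed by 0.12 (SE 0.0686, limma unadjusted p = 0.108, exact permutation p = 0.0303).

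Sfrp5, which binds Wnt ligands outside the cell, had the largest positive value of the secreted inhibitors at 0.50 with a standard error of 0.311 (limma unadjusted p = 0.129). Its differences were -0.06, 0.27 and 1.07 at day 28 and -1.46, 0.02 and 0.79 at day 7, so the days overlapped widely, and without rat 10 it was at 0.25. The direct targets of lithium and the genes of inositol supply, 14 measured, had a median of -0.03 and 0 genes at an unadjusted p. Gsk3b, the kinase gene, was at -0.16 (SE 0.101, limma unadjusted p = 0.129, exact permutation p = 0.0325). At day 28 its 6 differences lay between -0.08 and 0.01, and at day 7 between -0.01 and 0.62, where the 0.62 was rat 10 alone. Without rats 10 and 15 Gsk3b was at -0.04.

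A further set of 19 genes was drawn from the study's text. It holds genes that the study took up from these same samples, so it is no independent set, the proteins stained there (Postn and Calcr among them), and Gsk3b and Axin2 for the destruction complex, which the study treats as background without naming Axin2. Of the 19, Dkk1 had an unadjusted limma p under 0.05, and by the exact permutation test so did the background genes Gsk3b and Axin2. Of the 19 genes 8 were above and 11 below 0, with a median of -0.06. Fosl1, a transcription factor gene of the AP-1 family, was at -0.06 (SE 0.124) and Ctnnb1, the beta-catenin gene, at -0.06 (SE 0.0927), so differences of the size seen in Dkk1 lie several standard errors away for both. For other genes the spread was too wide for such a statement. Aspn, a small matrix proteoglycan, was at -0.12 (SE 0.557), with differences of -1.58, -0.08 and 1.51 at day 28 and -1.08, -0.17 and 1.63 at day 7. It was at -1.14 (limma unadjusted p = 0.0483) without rats 23, 27 and 29 and at 0.27 without rats 10 and 15. Cxcl2, a neutrophil-attracting chemokine, was at 0.28 (SE 0.584).

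The remaining genes of this set also had p values above the threshold. A2m, a protease inhibitor, was at -0.35 (limma unadjusted p = 0.0907) and changed over time by -1.93 around Li+ and by -1.57 around Ctrl. The monocyte chemokine genes Ccl7 and Ccl2 were at -0.40 and -0.14, Lrp5, a Wnt co-receptor, at -0.16, Prkca, a protein kinase C gene, and Calcr, the calcitonin receptor of osteoclasts, at -0.10 each, the Wnt receptor Fzd2 at 0.00, the matrix protein gene Postn at 0.01, the mast cell protease gene Prss34 at 0.04, Ctnnbip1, whose protein keeps beta-catenin from TCF, at 0.16 and the cartilage proteoglycan Acan at 0.24.

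**Figure D4:**
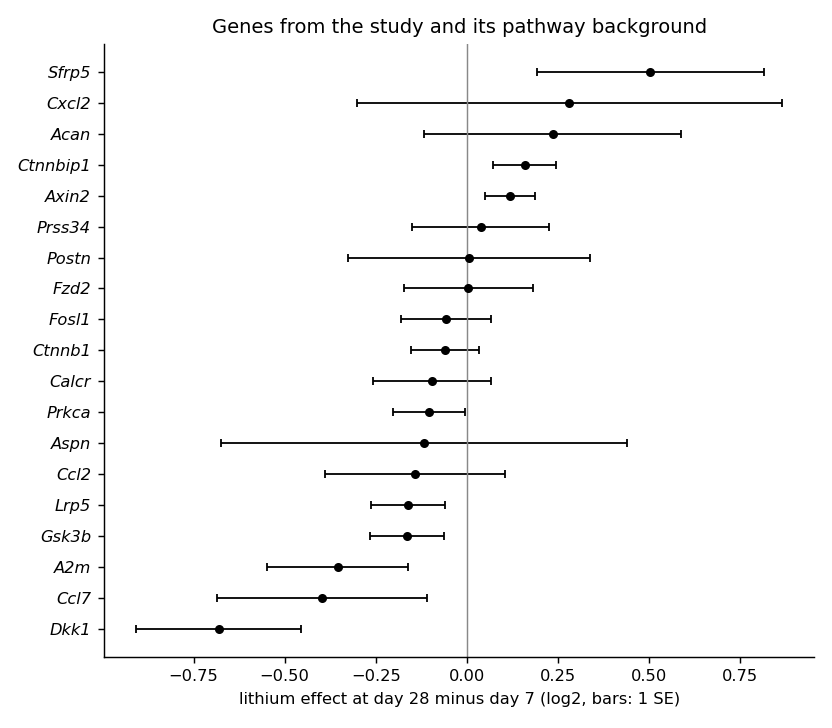
The difference between days of Li+ minus Ctrl (log2) is drawn for 19 genes, those taken up in the study and, as pathway background, Gsk3b and Axin2, with bars of 1 SE. Only Dkk1 at -0.68 lies more than 2 standard errors from 0, while Aspn and Cxcl2 have the widest bars.

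Over all 44 lists of pathways and cell types, 923 of 1050 memberships were measured, 27 lists held 0 genes at an unadjusted p, and the median lay within 0.1 of 0 in 42. In 29 of the 44 lists the sign of the median turned when 1 of the 12 rats was left out. One list with a median beyond 0.1 in size was that of AP-1 and immediate early genes, which respond within minutes to signals. Of its 25 genes 20 (80%) were above 0, with a median of 0.13 against 0.01 over all named genes. Dusp1, a phosphatase that switches off MAP kinases, was the one with an unadjusted p under 0.05. Its differences were -0.17, 0.06 and 0.69 at day 28 and -0.72, -0.13 and -0.04 at day 7 (difference 0.38, limma unadjusted p = 0.0310). Without rats 10 and 15 it was 0.22 (limma unadjusted p = 0.170). Fos was at 0.42 (limma unadjusted p = 0.325), where rat 30 alone had a difference of 2.28. The mean of the list was 0.57 in rat 30 at day 28 and -0.29 in rat 10 at day 7, and without rat 30 the list's median was 0.02.

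The other list with a median beyond 0.1 in size was skeletal muscle. All 26 muscle genes were below 0 with a median of -0.50, but their median standard error was 1.15. The list's mean Li+ minus Ctrl difference was 0.09, -4.66, 4.16, -0.19, -2.64 and 0.03 in rats 21, 23, 27, 28, 29 and 30 of day 28. The median was 0.34 without rat 23, so the direction of the muscle genes turned with 1 animal.

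Genes of bone-forming and bone-resorbing cells had medians near 0. Of 17 osteoblast genes 9 were above 0 with a median of 0.01, of 15 osteoclast genes 8 with a median of 0.01, and 0 of either had an unadjusted p under 0.05. Without single rats the median lay between -0.0975 and 0.0835 for osteoblast genes and between -0.0616 and 0.0954 for osteoclast genes. Bglap, the osteocalcin gene, was at -0.13 (SE 0.140) and Mmp9, a collagen-degrading enzyme of osteoclasts and neutrophils, at 0.07 (SE 0.0886). Of 32 collagen genes 12 were above 0 with a median of -0.04, Col14a1 being the one counted, and of 35 TGF-beta and BMP genes 11 with a median of -0.03. Adipocyte genes had a median of -0.08 and Adipoq, the adiponectin gene, was at -0.36 (SE 0.235).

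**Figure D5:**
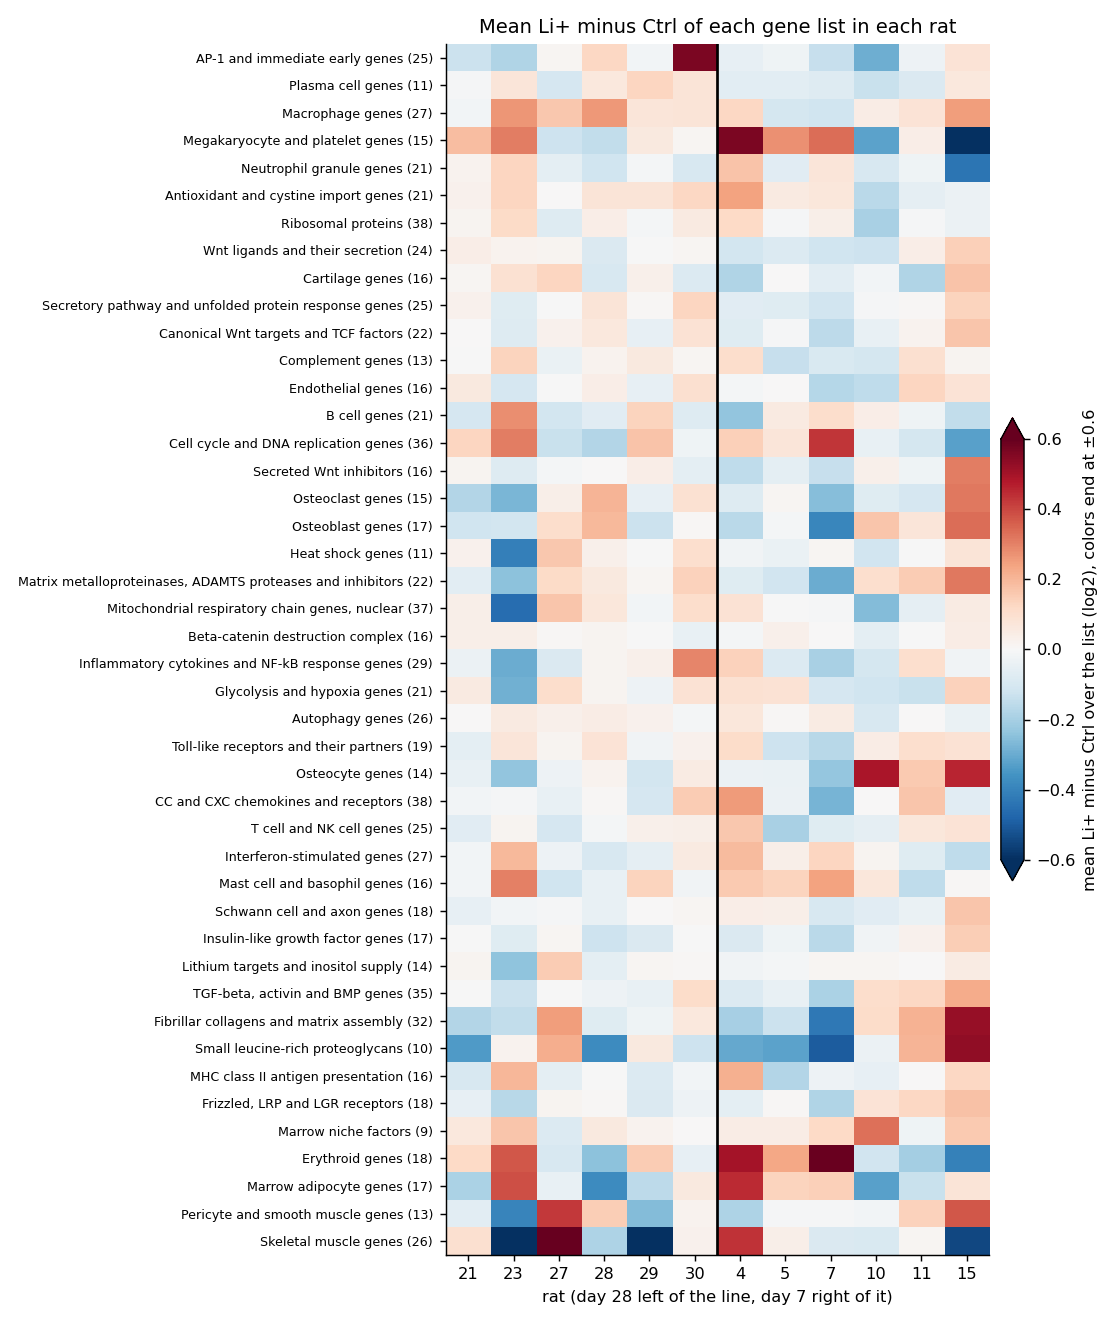
The color gives the mean Li+ minus Ctrl difference (log2) of each of 44 gene lists in each rat, day 28 left of day 7, with colors ending at 0.6 in size and lists ordered by the median difference between days. Rats of the same day often differ in sign within a list, as for muscle at day 28 and for erythroid and collagen genes at day 7.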

How the data were processed

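The authors deposited log2 signals per probe set of 24 Affymetrix Rat Gene 2.0 ST arrays, background corrected, quantile normalized and summarized by RMA in Affymetrix Expression Console 1.1.2, per the labels and the study's methods. The values were not normalized again, and raw arrays and detection calls were not used. A shift between arrays that RMA does not remove stays in the differences. The 190 control probe sets were left out and 36495 tested. A single symbol was carried by 18511 probe sets, several by 575 and none by 17409. Of the single-symbol probe sets, 18394 were found by Entrez identifier in the annotation of GRCr8, with 0 symbols changed, and the probe set with the highest mean stood for each of 18166 genes (291 symbols had several).

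Ctrl was subtracted from Li+ within each rat, and the 12 differences were compared between days with lmFit and eBayes in limma 3.58.1 (R 4.3.3), two-sided, with Benjamini-Hochberg adjustment over all probe sets at 0.05. Exact permutation tests enumerated the 924 regroupings of the rats. For genes chosen by their values in these data the exact p is a description and no separate support. The labels name the rat and the methods place both implants in each animal, so pairs share an animal. After group means were removed, arrays of the same rat correlated with a median of 0.279 (0.0675 to 0.569, above 0.1 in 11 of 12 rats), against -0.0347 (-0.294 to 0.349) for 60 pairs of different rats. The p-values measure the spread between these animals in the difference between their Li+ and Ctrl sites. With 1 array per site in each rat, variation between sites is part of that spread and cannot be told apart from the implant. The number of arrays limits the precision.

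The members and lists were chosen with earlier results of these data known. Genes named were the 12 smallest p in each direction above the median signal, up to 4 in each direction past 1.5-fold, 19 genes of the study and its pathway background, genes above the median signal with an unadjusted p under 0.05 for Li+ against Ctrl on both days in opposite directions (0 met this), and up to 3 genes of each described list. Single genes outside these rules were named after their values had been seen. A list is described by its count and median.

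Alternatives were no replicate block, a random block, the methods' t-test, moderated variance with trend, array weights, centering, filters on signal and symbol, the mean of a gene's probe sets, a muscle covariate, leaving out each rat, rats 23, 27 and 29 (muscle), rats 10 and 23 (widest differences), and, added after the data had been seen, rats 10 and 15. On simulated data with 200 changed probe sets per size among 36495, 61.5%, 87% and 98.5% were recovered at the adjusted threshold for differences of 0.585, 1 and 1.5. Such shares depend on how many probe sets are changed, which is not known for the measured data. Of the unchanged simulated probe sets 4.87% had an unadjusted p under 0.05, against 3.62% of all measured ones. At the adjusted threshold 31 of the unchanged ones passed. The simulation used the spread of each probe set in these rats, but with normal, independent values and the same spread on both days. The measured spread was larger at day 7 in 63.6% of the genes, so the shares do not exclude differences of these sizes. Promoters came from RefSeq (GRCr8). Tables and figures were made in python 3.11.15 (pandas 2.3.3, matplotlib 3.10.9, numpy 2.4.6, scipy 1.17.1).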

Additional observations from a re-analysis of the deposited data

Results flagged for a closer look

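In 11 of the 180 sets of 6 rats over 90 named genes, 1 animal stood apart from the others by more than the 95% limit of Dixon's test. Chance gives this in about 5% of such sets, and the count is near that share. The 90 genes were also partly chosen by their values in these data, so the entries below are descriptions. Rat 10 was the animal at day 7 for Gsk3b (Li+ minus Ctrl 0.62), Fzd4 (0.52), Csnk1a1 (0.47), Ubl5 (-0.75), Jund (-0.81) and Klf2 (-0.65). Rat 11 was the animal at day 7 for Mmp7 (-0.64) and, with the value closest to 0, for Sumf2 (-0.0312), and rat 15 for Acan (1.30). At day 28 it was rat 29 for Ctnnb1 (-0.14) and rat 27 for Col2a1 (0.40).

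In 3 genes above the median signal all 6 rats of day 28 were higher with Li+ and all 6 of day 7 lower. The difference between days was 0.34 in Hsd17b8, 0.17 in Derl1, which helps remove misfolded proteins from the endoplasmic reticulum, and 0.15 in Rtcb, a ligase of tRNA splicing. Their unadjusted limma p was 0.0114, 0.040 and 0.0248, and the adjusted p was 0.9995 for each. Over all 18166 named genes 9 had the rats of the days on opposite sides of 0, 7 of them higher and 2 lower at day 28. No chance level was worked out for so small a count, so it is no result about the 3 genes above.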

How the results depend on the processing

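At the adjusted threshold 0 probe sets passed under every setting that tested all of them. The 427 named genes at an unadjusted p were 219 with no replicate block (193 of them shared), 189 with probe sets above the median signal only, 554 by the methods' t-test, and 363 to 568 when single rats were left out. The 10 genes at 1.5-fold were 6 by the methods' t-test, 3 above the median signal, 29 without rats 23, 27 and 29, and 7 to 19 without single rats. The 28 genes without overlap were 16 above the median signal, where fewer genes were tested, and with fewer rats 327 (without 23, 27 and 29), 98 (without 10 and 23), 151 (without 10 and 15) and 37 to 73 (without single rats). Fewer rats make separation by chance more frequent, so these counts cannot be set against the 28 and show no added separation. With no replicate block the p was 0.128 for Mepe, 0.145 for Dkk1, 0.144 for Sost and 0.299 for Mmp12.

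The direction turned without rats 23, 27 and 29 for Fzd2 (-0.0813), Prss34 (-0.0875), Acan (-0.21), Postn (-0.22), Calcr (0.0553), Ccl2 (0.16) and Msx2 (-0.0369), without rats 10 and 23 for Fzd2 (-0.00999), Prss34 (-0.14), Ccl2 (0.00908), Ryr1 (0.0330), Myh7 (0.0650) and Actn2 (0.18), without rats 10 and 15 for Aspn (0.27), Prss34 (-0.15), Ctnnb1 (0.0554) and Enpp1 (0.0080), and with array weights for Prss34 (-0.0629). Without single rats it also turned, with ranges of -0.14 to 0.00049 for Fosl1, -0.45 to 0.21 for Aspn, -0.0917 to 0.75 for Cxcl2, -0.10 to 0.13 for Fzd2, -0.0579 to 0.15 for Prss34, -0.19 to 0.17 for Postn, -0.18 to 0.0017 for Calcr, -1.30 to 0.0847 for Ryr1, -1.04 to 0.0102 for Myh7 and -1.86 to 0.20 for Actn2. The cause was not tested. Over the 90 genes that the naming rule gave, of the pairs of a gene and an alternative 2003 kept direction and side of the unadjusted threshold, 126 lost the threshold, 60 met it newly and 44 turned.

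The correlation across genes between the days stayed between 0.0444 and 0.125 without single rats. Genes under the median signal may be near background, where no detection call was used.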

Other observations

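Among the genes with an unadjusted p under 0.05 for Li+ against Ctrl on both days and in the same direction, 2 are given here, chosen after their values had been seen. Ptcd3, a gene of mitochondrial translation, had a mean Li+ minus Ctrl difference of 0.38 at day 28 and 0.27 at day 7, and the days differed by 0.12 (SE 0.16), or by 0.27 without rats 10 and 15. Ankrd34c had 0.67 at day 28 and 0.63 at day 7, and the days differed by 0.04 (SE 0.31), or by 0.25 without rats 10 and 15. These standard errors leave room for a difference between days.

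Among lists not described so far, 9 of 11 plasma cell genes were above 0 with a median of 0.10, which was 0.0560 without rat 23, 0.0583 without rat 29 and 0.0579 without rat 15. In that list were Mzb1, an antibody-folding cofactor, at 0.20 and Fkbp11 at 0.25. Of 38 ribosomal protein genes 28 (73.7%) were above 0 with a median of 0.04, but 18 with a median of -0.00068 without rat 10, and 25 with 0.0157 without rat 23. In both lists 0 genes had an unadjusted p under 0.05. Of 18 Schwann cell and axon genes 8 were above 0. In that list Nefl, the light neurofilament chain of axons, did not overlap between days, with -0.46, -0.20 and -0.03 at day 28 and -0.01, 0.07 and 0.33 at day 7 (difference -0.30, limma unadjusted p = 0.00502, exact permutation p = 0.00216), and Bdnf, a neurotrophin, was at 0.23, with a p that lost the threshold in 5 of 12 fits without a single rat. Both were under the median signal. Of 13 pericyte genes 3 were above 0, and of 18 erythroid genes 3, with medians of -0.08 and -0.07. Without rat 4 the erythroid list had 10 genes above 0 and a median of 0.0167, and without rat 7 it had 11 and 0.0201. The pericyte median was -0.0223 without rat 15 and -0.0229 without rat 23.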
